A study of Mus musculus with 12 samples.

Results

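Nuclear-encoded subunits of the mitochondrial respiratory chain were read in 4 groups of sorted mouse regulatory T cells (Tregs). The members were taken by symbol: Nduf genes with a letter a, b, c, s or v and a digit for complex I, Sdha to Sdhd for complex II, Uqcr genes and Cyc1 for complex III, the Cox4 to Cox8 genes for complex IV and the Atp5 genes for complex V, with rows ending in -ps left out. They came to 85 of the 24421 gene symbols of the table, 37 in complex I, 4 in complex II, 9 in complex III, 18 in complex IV and 17 in complex V. Of the 85, 77 passed the filter on low counts and were tested among 12461 genes (36, 4, 9, 11 and 17 in complexes I to V). A symbol is not always a subunit. Ndufa4 stands here under complex I, although its protein is now counted to complex IV, and Atp5s and Atp5sl, which RefSeq names Dmac2l and Dmac2, encode no ATP synthase subunit.

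The groups were effector Tregs (eTreg) lacking CD25 (KO eTreg), eTreg with CD25 (WT eTreg), central Tregs (cTreg) lacking CD25 (KO cTreg) and cTreg with CD25 (WT cTreg), with 3 libraries of total RNA each after ribosomal RNA depletion. CD25, encoded by Il2ra, is the receptor chain that gives Tregs their high affinity for interleukin-2. Mice of both genotypes carried the R26tomato reporter and the Foxp3eGFPERT2 allele, which places a tamoxifen-inducible recombinase under Foxp3, the gene that defines Tregs, and both received tamoxifen into the peritoneum (2 mg/kg over 5 days, cells taken 10 days later). Viable CD4+ cells positive for GFP and tdTomato were sorted into eTreg and cTreg by a further surface stain. Each library pooled the spleen and nodes of 2 to 3 mice. KO cells were further gated as CD25-low, so a gate as well as a deletion separates the genotypes. The genotype field of the labels gives the floxed CD25FL allele to the libraries titled WT and the CD25WT allele to those titled KO. The groups used here go by title and cell type. Il2ra stood at 116 to 132 CPM in KO eTreg against 464 to 562 CPM in WT eTreg, and at 112 to 122 CPM in KO cTreg against 523 to 579.8 CPM in WT cTreg. CPM are counts scaled to one common library size after TMM normalization. The age and strain of the mice were not given, nor whether the libraries of a group came from separate sorts, so p-values measure the spread between these libraries.

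The respiratory chain passes electrons from NADH (through complex I) and from succinate (through complex II) to ubiquinone, on through complex III to cytochrome c, and through complex IV to oxygen. Complexes I, III and IV pump protons across the inner mitochondrial membrane as they do so, and complex V, the ATP synthase, lets the protons back to make ATP. Most subunits are encoded in the nucleus and the rest in mitochondrial DNA; the mitochondrially encoded subunits were not analysed here. Tregs are known to draw on oxidative phosphorylation more than conventional effector T cells do, and mouse Tregs without complex III are known to lose suppressive function.

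Total counts ranged from 14567313 to 19121577 per library, and the common biological coefficient of variation was 0.0768. Treg markers (Foxp3, Ikzf2, Ctla4, Cd4, Cd3e and Cd3g) summed to 4430 to 4612 CPM in KO eTreg, 3997 to 4221 CPM in WT eTreg, 2917 to 2989.99 CPM in KO cTreg and 2563 to 2651 CPM in WT cTreg. Ikzf2 moved most, with means of 2180, 1875, 776 and 588 CPM in the same order of groups. Foxp3 itself ran against the sum, with means of 176, 244, 227 and 393 CPM. It was lower in eTreg than in cTreg and lower in KO than in WT. Each list of B cell, plasma cell, CD8 T cell, myeloid, dendritic, NK and erythroid markers summed to at most 15.8 CPM in any library. Some properties of the libraries moved with the subset. The ribosomal RNA precursor Rn45s took 3.19% to 3.32% of counts in KO eTreg and 4.11% to 4.34% in WT eTreg, against 18.1% to 18.5% in KO cTreg and 22.4% to 24.4% in WT cTreg. The mean GC content of the transcripts, weighted by their CPM, was 48.6% to 48.7% in KO eTreg and 48.7% to 48.8% in WT eTreg, against 50.3% to 50.5% in KO cTreg and 50.4% to 50.6% in WT cTreg, with no overlap between subsets.

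Levels were first compared between members per length, as CPM per kb of the principal transcript (GENCODE vM21 gene models on mm10, found for 84 of the 85 members; Atp5sl has none). Complex V had medians over its 16 measured members of 59.6, 63.6, 74.5 and 76.9 CPM per kb in KO eTreg, WT eTreg, KO cTreg and WT cTreg. Complex IV had medians of 55.5, 56.2, 97.6 and 90.6 over 11 members, below complex V in eTreg and above it in cTreg. Complex III had medians of 36.0, 39.6, 52.7 and 48.1 CPM per kb in the same order of groups, complex II of 30.6, 31.7, 42.9 and 38.4, and complex I of 25.3, 25.5, 33.0 and 32.2. The most abundant member per length was Uqcrh, the hinge subunit of complex III, in eTreg (157 CPM per kb in KO eTreg and 163 in WT eTreg), and Atp5b, the catalytic beta subunit of the ATP synthase, in cTreg (227 in KO cTreg and 233 in WT cTreg). The lowest member of complex II was the membrane anchor Sdhc (7.77, 8.99, 12.9 and 13.4 CPM per kb), of complex I Ndufc1 (8.29, 7.77, 8.19 and 7.66) and of complex III Uqcrq (8.15, 9.25, 19.05 and 18.6).

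**Figure D1:**
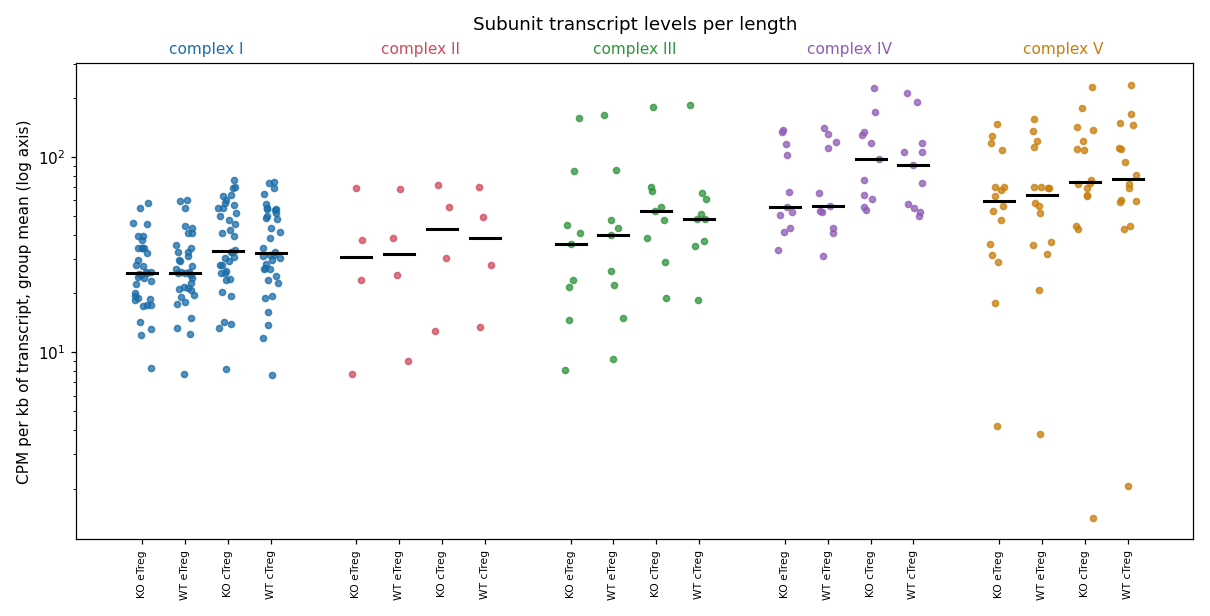
Level of each tested member as the group mean in CPM per kb of transcript, on a log axis, by complex and by group (KO eTreg, WT eTreg, KO cTreg, WT cTreg from left to right); black bars are medians over members. Complexes IV and V stand above complexes I and II in every group, and the lowest point of complex V is Atp5s.

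The 8 members that were not tested are the paralogs that other tissues use in place of the common isoforms. Cox7b2, Cox8b, Cox8c and Ndufa4l2 had 0 counts in all 12 libraries; a count of 0 allows up to 3 counts, or 0.138 to 0.241 CPM depending on the library (counting error only). Cox4i2, the hypoxia-linked lung isoform of subunit 4, had 1 count over all 12 libraries, and Cox6a2, the heart and muscle isoform of subunit 6a, had 2. Cox6b2, the testis isoform of subunit 6b, had 44 counts in all and at most 10 in a library, and Cox7a1, the heart and muscle isoform of subunit 7a, had 55 in all and at most 8 in a library. The common isoforms carried the signal: Cox4i1 had 100.1 ± 7.32 CPM in KO eTreg, 105 ± 3.22 in WT eTreg, 168 ± 12.9 in KO cTreg and 158 ± 8.05 in WT cTreg (SD, n = 3 each).

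Relative to the library as scaled by TMM, most subunit transcripts were lower in effector than in central Tregs, in KO and in WT mice. In KO mice 58 of the 77 tested members were lower and 7 higher in eTreg than in cTreg, with a median log2 fold change of -0.48 over the members, and in WT mice 51 were lower and 10 higher, with a median of -0.34. Calls were made at an adjusted p under 0.05 with edgeR's quasi-likelihood test (two-sided), adjusted over all 12461 genes after Benjamini and Hochberg. Every adjusted p is from this test, and ± after a log2 fold change is its SE. Over all genes tested the 2 subsets differed widely, with calls in both directions: 72% of genes were called in KO (36.1% higher and 35.8% lower) and 71.5% in WT (35.7% higher and 35.8% lower), with medians of -0.00014 in KO and 0.00027 in WT. The members called lower were thus 75.3% of those tested in KO and 66.2% in WT, beside 35.8% of all genes in either genotype. Without Atp5s and Atp5sl, 57 of 75 members were lower and 6 higher in KO, and 50 were lower and 9 higher in WT.

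The KO and WT comparisons share no library but are not independent. They come from the same fit, and same-numbered eTreg libraries of the 2 genotypes were correlated. The shifts in Rn45s and GC content between subsets were present in both genotypes. In the 2 comparisons 51 members were lower in eTreg in both genotypes, 7 were higher in both (Atp5s, Cox6c, Ndufa5, Ndufs1, Ndufs4, Ndufv2 and Uqcrb), none was called in opposite directions and 9 were called in neither. Some of the higher calls rest on single libraries. Without KO eTreg replicate 2, the KO calls of Cox6c, Ndufs1, Ndufs4 and Ndufv2 were lost, which left 3 members higher in KO. Without KO eTreg replicate 3, those of Cox6c, Ndufs1 and Ndufs4 were lost, which left 4. The libraries of the subsets did not overlap for 61 members in KO (79.2%, beside 74.6% of all genes) and for 64 in WT (83.1%, beside 74.9%). In bulk libraries, less RNA of a gene per cell and fewer cells that express it cannot be told apart. CPM are relative to the library, so the amount of RNA per cell was not measured. The summed level of the 85 members was 3294, 3663 and 3415 CPM in KO eTreg and 3529, 3673 and 3562 CPM in WT eTreg, against 4514, 4961 and 4812 CPM in KO cTreg and 4865, 4416 and 4588 CPM in WT cTreg, so that every eTreg library lay below every cTreg library. The summed level of complex II differed least between subsets (297 ± 11.2 CPM in KO eTreg and 301 ± 6.01 CPM in WT eTreg, against 349 ± 14.4 CPM in KO cTreg and 337 ± 12.02 CPM in WT cTreg, SD, n = 3 each). Most of that sum was Sdha (200 CPM in KO eTreg and 197 in WT eTreg, against 207 in KO cTreg and 204 in WT cTreg). By the median over members, complex II did not differ least in KO (log2 fold change -0.47, beside -0.43 for complex I).

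The size of the subset difference moved with the base composition of the transcript. Over the 76 tested members with a gene model, the log2 fold change between eTreg and cTreg had a Pearson correlation with transcript GC content of -0.73 in KO and -0.69 in WT, beside -0.51 and -0.41 over the 11947 tested genes with a model. These are descriptions across genes, which share the 12 libraries and are not independent. Among members at 55% GC or more, 21 of 23 (91.3%) were lower in KO and as many in WT, beside 72.2% and 71.4% of all genes in that range. Between 45% and 50% GC, 63.2% of 19 members were lower in KO and 47.4% in WT, beside 16.5% and 17.6% of all genes. An alternative fit removed each library's trend with length and base composition through a spline offset. It brought the correlation over all genes to -0.0074 in KO and -0.0076 in WT. With that offset 42 members were lower and 7 higher in KO (median -0.22, beside -0.0092 over all genes), and 38 were lower and 11 higher in WT (median -0.17, beside -0.065 over all genes). With it 29.2% of all genes were lower in KO and 33.7% in WT, beside 54.5% and 49.4% of the members. At 55% GC or more, 11 of 23 members were then lower in KO and 8 in WT, beside 919 and 1057 of 3002 genes. The medians there were -0.073 in KO and -0.095 in WT, beside -0.021 and -0.086 over all genes. Between 45% and 50% GC, 13 of 19 members were lower in KO and 12 in WT, beside 872 and 1038 of 3067 genes. The medians in that range were -0.23 in both, beside -0.0012 and -0.063. Of the 51 members lower in both genotypes, 28 were lower in both with the offset as well, 16 were called in neither genotype with it, and Ndufb8, Ndufb9 and Ndufs8 were called higher with it in at least 1 genotype. Of the 7 higher in both, Cox6c, Ndufa5 and Uqcrb were higher in both with the offset, Ndufs1, Ndufs4 and Ndufv2 were called lower in both with it, and Atp5s was called higher in KO alone. In all, the sign turned with the offset for 13 of the 65 members called in KO and for 14 of the 61 called in WT.

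**Figure D2:**
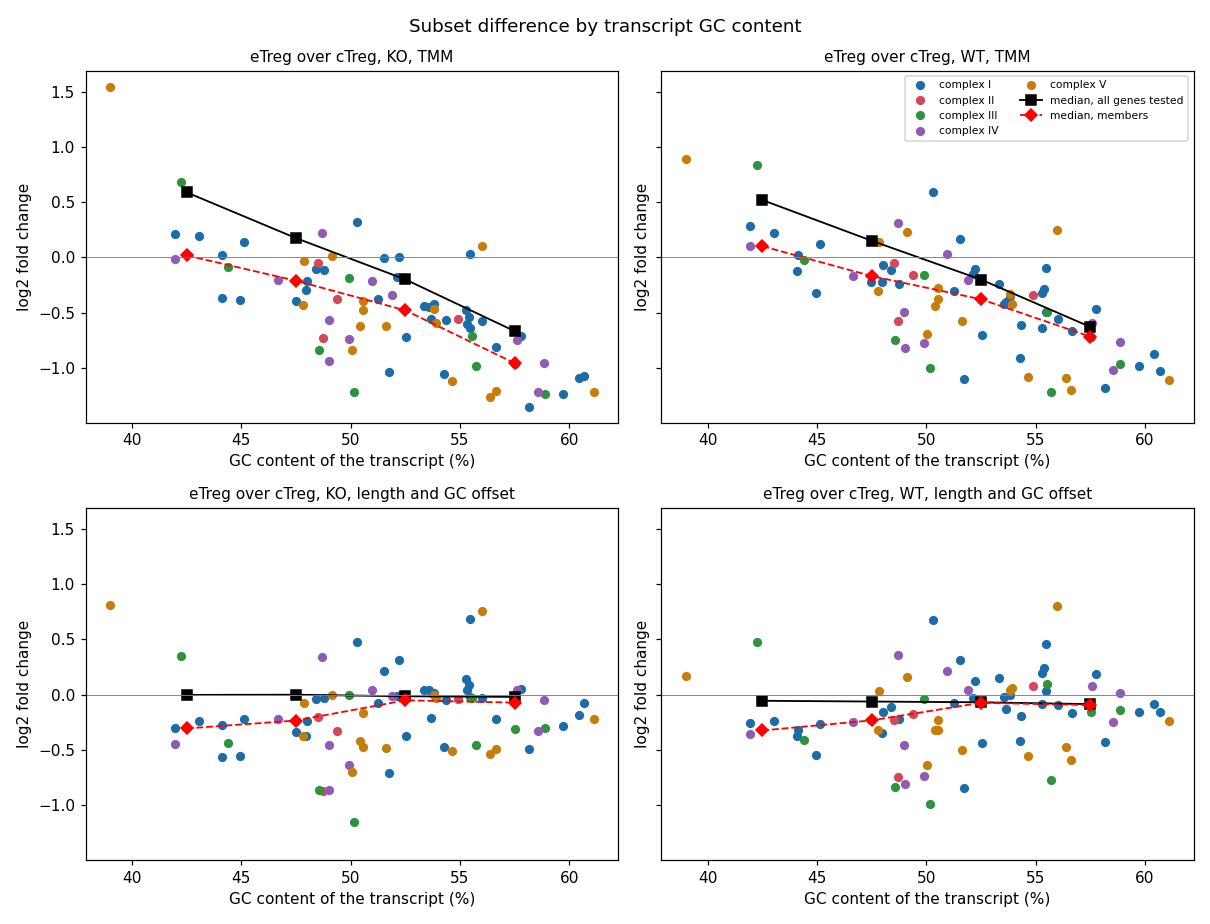
Log2 fold change of eTreg over cTreg against the GC content of the transcript (%), in KO (left) and WT (right), as scaled by TMM (top) and with the length and GC offset (bottom). Dots are the tested members by complex, black squares the medians of all genes tested in 4 ranges of GC content and red diamonds the medians of the members in the same ranges; the members' medians slope with GC under TMM and lie between -0.33 and -0.05 with the offset.

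Transcripts at either end of this range are shown by the coding sequences of a pair of complex III subunits, Uqcr11, lower in eTreg, and Uqcrb, higher in eTreg. Uqcr11 lies on chromosome 10, 80402997 to 80406830 (mm10, minus strand) and Uqcrb on chromosome 13, 66900617 to 66905378 (mm10, minus strand). The first 171 coding bases of each are given 5′ to 3′ with G and C in capitals, from the GENCODE vM21 transcripts; they are the whole coding sequence of Uqcr11, with 60.23% GC, and part of the 336 coding bases of Uqcrb, with 42.11% GC.
Uqcr11: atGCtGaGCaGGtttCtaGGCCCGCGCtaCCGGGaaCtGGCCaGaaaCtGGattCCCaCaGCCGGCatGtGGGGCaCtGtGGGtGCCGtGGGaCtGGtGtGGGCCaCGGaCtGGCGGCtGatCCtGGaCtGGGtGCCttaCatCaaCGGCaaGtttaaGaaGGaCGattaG
Uqcrb: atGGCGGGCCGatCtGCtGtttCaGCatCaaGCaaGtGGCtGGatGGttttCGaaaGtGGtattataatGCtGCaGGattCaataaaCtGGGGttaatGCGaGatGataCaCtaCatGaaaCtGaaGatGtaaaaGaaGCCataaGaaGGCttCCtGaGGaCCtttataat
Uqcr11, a small subunit on the outer edge of complex III, had 10.6, 10.7 and 10.03 CPM in KO eTreg and 11.3, 11.5 and 12.1 CPM in WT eTreg. In cTreg, Uqcr11 had 22.7, 25.7 and 25.1 CPM in KO cTreg and 24.9, 20.9 and 22.1 CPM in WT cTreg. Its log2 fold change between subsets was -1.23 ± 0.092 in KO (adjusted p = 3.96e-09) and -0.96 ± 0.092 in WT (adjusted p = 7.17e-08), and with the offset it was -0.30 in KO and -0.14 in WT, no longer called in WT. Uqcrb, the subunit that binds ubiquinone beside cytochrome b, had 42.8, 48.7 and 43.9 CPM in KO eTreg and 45.1, 43.3 and 49.5 CPM in WT eTreg. In cTreg, Uqcrb had 25.6, 28.9 and 30.1 CPM in KO cTreg and 27.3, 26.02 and 23.6 CPM in WT cTreg. For Uqcrb, the log2 fold change was 0.68 ± 0.082 in KO (adjusted p = 1.13e-06) and 0.84 ± 0.083 in WT (adjusted p = 1.08e-07), and 0.35 in KO and 0.48 in WT with the offset. Every eTreg library stood below every cTreg library for Uqcr11 and above every cTreg library for Uqcrb.

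In complex I, which takes electrons from NADH, 26 of the 36 tested members were lower in eTreg and 4 higher in KO, and 21 were lower and 4 higher in WT (median log2 fold changes of -0.43 and -0.32). With the offset 16 were lower and 3 higher in KO and 13 lower and 6 higher in WT. The 7 nuclear-encoded core subunits did not move as a block. Ndufv1, which holds the flavin that accepts electrons from NADH, had 29.4, 29.6 and 27.4 CPM in KO eTreg and 33.4, 32.7 and 31.8 CPM in WT eTreg. In cTreg, Ndufv1 had 48.3, 51.1 and 51.97 CPM in KO cTreg and 54.2, 48.01 and 53.6 CPM in WT cTreg. Its subset difference was -0.81 ± 0.065 in KO (adjusted p = 1.02e-08) and -0.67 ± 0.065 in WT (adjusted p = 8.81e-08) on the log2 scale. The subsets of Ndufv1 did not overlap, and it stayed lower in eTreg with the offset (-0.22 in KO and -0.17 in WT).

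Ndufs1, the largest nuclear-encoded core subunit of complex I, went the other way under TMM, with 65.5, 72.6 and 68.4 CPM in KO eTreg and 70.7, 71.6 and 70.7 CPM in WT eTreg. In cTreg, Ndufs1 had 63.7, 63.9 and 60.5 CPM in KO cTreg and 63.2, 65.7 and 66.8 CPM in WT cTreg. For Ndufs1, the log2 fold change of 0.13 ± 0.053 in KO (adjusted p = 0.0299) and 0.12 ± 0.053 in WT (adjusted p = 0.0493) turned to -0.22 in KO and -0.26 in WT with the offset, so its direction depends on that correction. Its call in WT was lost under 15 of the 23 alternatives and turned to lower under 2, and its call in KO was lost under 6 and turned to lower under 2. The same holds for Ndufv2, which carries an iron-sulphur cluster next to the flavin: 0.21 ± 0.081 in KO (adjusted p = 0.0292) and 0.28 ± 0.082 in WT (adjusted p = 0.0057) under TMM and -0.31 in KO and -0.25 in WT with the offset. Ndufv2 had 52.1, 65.4 and 55.6 CPM in KO eTreg and 50.98, 60.2 and 55.1 CPM in WT eTreg. In cTreg, Ndufv2 had 47.6, 52.5 and 49.8 CPM in KO cTreg and 47.6, 45.3 and 44.2 CPM in WT cTreg. The subsets overlapped for Ndufv2 in KO, and not for Ndufv2 in WT or for Ndufs1.

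Among the accessory subunits of complex I, Ndufa11, which helps to hold the membrane arm together, differed most. It had 8.95, 11.4 and 10.03 CPM in KO eTreg and 12.2, 11.9 and 10.98 CPM in WT eTreg. In cTreg, Ndufa11 had 24.97, 25.6 and 27.1 CPM in KO cTreg and 30.2, 22.7 and 26.8 CPM in WT cTreg. The log2 fold change was -1.35 ± 0.11 in KO (adjusted p = 1.27e-08) and -1.18 ± 0.11 in WT (adjusted p = 5.49e-08), that is 2.55-fold lower in KO eTreg and 2.27-fold lower in WT eTreg, and -0.49 in KO and -0.43 in WT with the offset. In every eTreg library Ndufa11 was below its level in any cTreg library. Ndufb7, which sits on the intermembrane side, had 15.4, 17.9 and 14.6 CPM in KO eTreg and 17.1, 17.8 and 16.7 CPM in WT eTreg. In cTreg, Ndufb7 had 33.5, 41.7 and 37.4 CPM in KO cTreg and 34.2, 32.9 and 35.3 CPM in WT cTreg. For Ndufb7, the log2 fold change was -1.24 ± 0.091 in KO (adjusted p = 3.44e-09) and -0.99 ± 0.091 in WT (adjusted p = 4.84e-08), and -0.28 in KO and -0.16 in WT with the offset, no longer called in WT. Ndufa2, an accessory subunit of the matrix arm, had 12.7, 16.5 and 13.5 CPM in KO eTreg and 13.9, 13.5 and 13.6 CPM in WT eTreg. In cTreg, Ndufa2 had 27.9, 31.8 and 28.4 CPM in KO cTreg and 31.6, 26.96 and 29.7 CPM in WT cTreg. The difference of -1.04 ± 0.099 in KO (adjusted p = 6.66e-08) and -1.11 ± 0.10 in WT (adjusted p = 3.71e-08) was less dependent on the correction than for Ndufa11 and Ndufb7, at -0.71 in KO and -0.85 in WT with it. For Ndufb7 and Ndufa2 each eTreg library lay below each cTreg library.

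Ndufa5, an accessory subunit of the matrix arm, was the complex I member with the largest rise in eTreg. It had 16.3, 15.3 and 13.9 CPM in KO eTreg and 17.5, 18.2 and 18.7 CPM in WT eTreg. In cTreg, Ndufa5 had 12.8, 11.6 and 12.1 CPM in KO cTreg and 12.7, 11.8 and 11.8 CPM in WT cTreg. For Ndufa5, the log2 fold change was 0.32 ± 0.094 in KO (adjusted p = 0.00603) and 0.59 ± 0.094 in WT (adjusted p = 2.81e-05), and 0.48 in KO and 0.68 in WT with the offset, and the subsets did not overlap in either genotype. Ndufa4 had 30.1, 35.1 and 34.7 CPM in KO eTreg and 33.5, 38.7 and 35.98 CPM in WT eTreg. In cTreg, Ndufa4 had 40.4, 45.8 and 42.5 CPM in KO cTreg and 40.5, 38.5 and 39.1 CPM in WT cTreg. Ndufa4 had log2 fold changes of -0.36 ± 0.076 in KO (adjusted p = 0.000399) and -0.12 ± 0.077 in WT (adjusted p = 0.158). Under TMM only the KO difference of Ndufa4 passed the test, and with the offset Ndufa4 was called lower in both genotypes (-0.56 in KO and -0.38 in WT). The difference between genotypes in the subset effect of Ndufa4 did not pass (-0.24, adjusted p = 0.268).

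Complex II, which oxidises succinate and is also an enzyme of the TCA cycle, was encoded by 4 members, 3 lower in KO eTreg and 2 lower in WT eTreg. Sdha, the flavin subunit that oxidises succinate, was among the most even members, with 197, 202 and 202 CPM in KO eTreg and 206, 192 and 193 CPM in WT eTreg. In cTreg, Sdha had 204, 217 and 201 CPM in KO cTreg and 208, 202 and 203 CPM in WT cTreg. Its subsets overlapped, and its log2 fold change was -0.049 ± 0.047 in KO (adjusted p = 0.353) and -0.050 ± 0.047 in WT (adjusted p = 0.35); with the offset it was called lower at -0.20 in KO and -0.23 in WT. Sdhb, which carries the iron-sulphur clusters, had 38.97, 49.4 and 40.8 CPM in KO eTreg and 42.6, 42.9 and 46.6 CPM in WT eTreg. In cTreg, Sdhb had 58.5, 66.7 and 64.7 CPM in KO cTreg and 60.6, 51.7 and 55.5 CPM in WT cTreg. Under TMM its log2 fold changes were -0.56 ± 0.085 in KO (adjusted p = 1.92e-05) and -0.34 ± 0.086 in WT (adjusted p = 0.00191), with no overlap. With the offset they were -0.043 in KO and 0.081 in WT, not called. The membrane anchor Sdhc was lower, with log2 fold changes of -0.73 ± 0.065 in KO (adjusted p = 3.2e-08) and -0.57 ± 0.065 in WT (adjusted p = 5.38e-07), and -0.87 in KO and -0.75 in WT with the offset. The other anchor, Sdhd, had -0.38 ± 0.083 in KO (adjusted p = 0.000623) and -0.16 ± 0.083 in WT (adjusted p = 0.0904), called in KO alone without the offset and in both genotypes with it.

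Complex III, which passes electrons from ubiquinol to cytochrome c, had the lowest median of the 5 complexes under TMM, -0.84 in KO and -0.72 in WT, with 7 of 9 members lower and 1, Uqcrb, higher in each genotype. With the offset its medians were -0.31 and -0.16, with 6 lower in KO and 5 in WT. The rank held with it in KO and not in WT, where complexes II, IV and V had lower medians (-0.21, -0.25 and -0.32). Cyc1, cytochrome c1, hands the electron to cytochrome c. It had 20.95, 24.7 and 21.2 CPM in KO eTreg and 24.2, 23.5 and 20.2 CPM in WT eTreg. In cTreg, Cyc1 had 42.6, 44.8 and 45.2 CPM in KO cTreg and 59.8, 48.3 and 50.5 CPM in WT cTreg. It was 1.98-fold lower in KO eTreg and 2.33-fold lower in WT eTreg, with log2 fold changes of -0.99 ± 0.092 in KO (adjusted p = 5.67e-08) and -1.22 ± 0.092 in WT (adjusted p = 4.06e-09), and -0.46 in KO and -0.78 in WT with the offset. No eTreg library of Cyc1 reached the level of any cTreg library. Uqcrfs1, the Rieske iron-sulphur protein, had 28.3, 30.8 and 28.8 CPM in KO eTreg and 28.7, 32.5 and 29.1 CPM in WT eTreg. In cTreg, Uqcrfs1 had 51.7, 52.1 and 53.3 CPM in KO cTreg and 54.6, 48.9 and 48.9 CPM in WT cTreg. For Uqcrfs1, the log2 fold changes of -0.84 ± 0.068 in KO (adjusted p = 1.2e-08) and -0.75 ± 0.069 in WT (adjusted p = 4.2e-08) under TMM stand beside offset values of -0.86 in KO and -0.84 in WT. Its subsets stood apart in the same way. Uqcrq, a small subunit next to cytochrome b, had 13.4, 13.3 and 10.5 CPM in KO eTreg and 15.6, 14.8 and 11.8 CPM in WT eTreg. In cTreg, Uqcrq had 28.5, 29.6 and 28.8 CPM in KO cTreg and 32.6, 25.4 and 26.7 CPM in WT cTreg. Uqcrq had log2 fold changes of -1.22 ± 0.12 in KO (adjusted p = 8.66e-08) and -1.004 ± 0.12 in WT (adjusted p = 8.54e-07), and -1.16 in KO and -0.995 in WT with the offset. Uqcrc2, a core protein without a redox centre, was not called in either genotype under TMM (-0.086 in KO and -0.024 in WT) and was called lower in both with the offset (-0.44 in KO and -0.41 in WT). The catalytic subunits Cyc1 and Uqcrfs1 and the small Uqcrq were thus lower in eTreg with and without the offset, and the ubiquinone-binding Uqcrb was higher with and without it.

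Complex IV, cytochrome c oxidase, had 9 of 11 tested members lower and 1 higher in KO eTreg, and 8 lower and 1 higher in WT eTreg, with medians of -0.57 and -0.49. With the offset 6 were lower in each genotype, 1 higher in KO and 2 higher in WT. Cox4i1, the largest nuclear-encoded subunit, had 95.8, 109 and 95.97 CPM in KO eTreg and 103, 109 and 103 CPM in WT eTreg. In cTreg, Cox4i1 had 153, 176 and 174 CPM in KO cTreg and 167, 151 and 158 CPM in WT cTreg. For Cox4i1, the log2 fold changes of -0.74 ± 0.064 in KO (adjusted p = 2.25e-08) and -0.59 ± 0.064 in WT (adjusted p = 3.3e-07) became 0.040 in KO and 0.080 in WT with the offset, not called in either genotype. The subsets of Cox4i1 did not overlap. Cox5a, an accessory subunit on the matrix side, had 24.5, 29.9 and 25.2 CPM in KO eTreg and 24.5, 29.1 and 25.1 CPM in WT eTreg. In cTreg, Cox5a had 34.98, 42.4 and 40.8 CPM in KO cTreg and 36.3, 35.8 and 38.7 CPM in WT cTreg. Cox5a was lower, with log2 fold changes of -0.57 ± 0.093 in KO (adjusted p = 3.39e-05) and -0.49 ± 0.094 in WT (adjusted p = 0.000172), and -0.46 in KO and -0.45 in WT with the offset. Cox5b, which binds zinc, was lower too, with -0.94 ± 0.090 in KO (adjusted p = 7.79e-08) and -0.82 ± 0.092 in WT (adjusted p = 4.71e-07), and -0.86 in KO and -0.81 in WT with the offset. For Cox5a, too, each eTreg library was below each cTreg library. Cox8a, the smallest subunit, had 27.6, 33.1 and 30.9 CPM in KO eTreg and 29.8, 28.6 and 27.8 CPM in WT eTreg. In cTreg, Cox8a had 62.7, 79.7 and 71.2 CPM in KO cTreg and 59.3, 57.5 and 58.1 CPM in WT cTreg. Cox8a had log2 fold changes of -1.22 ± 0.082 in KO (adjusted p = 1.21e-09) and -1.02 ± 0.084 in WT (adjusted p = 1.12e-08), and -0.33 in KO and -0.25 in WT with the offset.

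Of the other isoform genes of complex IV, Cox6a1 had 24.8, 31.3 and 29.98 CPM in KO eTreg and 30.03, 31.4 and 29.5 CPM in WT eTreg. In cTreg, Cox6a1 had 49.1, 61.1 and 56.9 CPM in KO cTreg and 50.8, 47.7 and 56.6 CPM in WT cTreg. Under TMM its log2 fold changes were -0.96 ± 0.094 in KO (adjusted p = 1.24e-07) and -0.77 ± 0.095 in WT (adjusted p = 1.69e-06). They were -0.052 in KO and 0.018 in WT with the offset, not called. Cox7a2 had 26.3, 31.5 and 28.04 CPM in KO eTreg and 25.7, 29.8 and 29.5 CPM in WT eTreg. In cTreg, Cox7a2 had 32.2, 37.6 and 39.1 CPM in KO cTreg and 34.9, 31.4 and 32.04 CPM in WT cTreg. Cox7a2 had log2 fold changes of -0.35 ± 0.089 in KO (adjusted p = 0.00234) and -0.21 ± 0.091 in WT (adjusted p = 0.0496). With the offset they were -0.016 in KO and 0.043 in WT, not called, and in WT of the opposite sign. Cox6b1, the subunit 6b of most tissues, had 65.7, 79.9 and 69.4 CPM in KO eTreg and 69.9, 78.03 and 73.5 CPM in WT eTreg. In cTreg, Cox6b1 had 78.03, 84.6 and 86.9 CPM in KO cTreg and 77.1, 64.7 and 75.99 CPM in WT cTreg. For Cox6b1, the log2 fold change was -0.22 ± 0.079 in KO (adjusted p = 0.0225) and 0.026 ± 0.080 in WT (adjusted p = 0.781), so only KO passed the test, with overlapping libraries. With the offset the values were 0.043 in KO and 0.21 in WT, and it was WT that was called, as higher. Cox7a2l, which joins complexes III and IV into supercomplexes, had 105, 111 and 114 CPM in KO eTreg and 125, 116 and 119 CPM in WT eTreg. In cTreg, Cox7a2l had 180.4, 185 and 184 CPM in KO cTreg and 217, 193 and 203 CPM in WT cTreg. Cox7a2l was lower in eTreg, with log2 fold changes of -0.74 ± 0.053 in KO (adjusted p = 2.31e-09) and -0.77 ± 0.053 in WT (adjusted p = 1.21e-09), and -0.64 in KO and -0.73 in WT with the offset. Its subsets did not overlap. Cox6c was the 1 member of complex IV that was higher in eTreg in both genotypes, with 62.0, 75.1 and 70.5 CPM in KO eTreg and 63.7, 70.8 and 63.5 CPM in WT eTreg. In cTreg, Cox6c had 51.6, 63.1 and 63.2 CPM in KO cTreg and 53.5, 51.8 and 54.6 CPM in WT cTreg. For Cox6c, the log2 fold change was 0.22 ± 0.082 in KO (adjusted p = 0.0233) and 0.31 ± 0.083 in WT (adjusted p = 0.00323), and 0.34 in KO and 0.36 in WT with the offset; its KO libraries overlapped between subsets and its WT libraries did not.

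Of the 17 members listed under complex V, the ATP synthase, 13 were lower in eTreg in each genotype, 1 higher in KO and 4 higher in WT (medians of -0.48 and -0.38). These counts include Atp5s and Atp5sl, which are not ATP synthase subunits. Atp5sl was called lower and Atp5s higher in each genotype, and Atp5s was the 1 higher in KO. With the offset 11 were lower and 2 higher in each. In the F1 head, Atp5a1 encodes the alpha subunit and Atp5b the catalytic beta subunit. Atp5a1 had 298, 339 and 307 CPM in KO eTreg and 340.2, 339 and 331 CPM in WT eTreg. In cTreg, Atp5a1 had 414, 460.5 and 443 CPM in KO cTreg and 432, 395 and 401 CPM in WT cTreg. Atp5a1 had log2 fold changes of -0.48 ± 0.057 in KO (adjusted p = 1.02e-06) and -0.28 ± 0.057 in WT (adjusted p = 0.000313). The alpha subunit's subsets did not overlap. Atp5b had 279, 302 and 270.1 CPM in KO eTreg and 287, 313 and 296 CPM in WT eTreg. In cTreg, Atp5b had 416, 450.3 and 439 CPM in KO cTreg and 477, 419.6 and 444 CPM in WT cTreg. Atp5b had log2 fold changes of -0.62 ± 0.059 in KO (adjusted p = 6.71e-08) and -0.58 ± 0.059 in WT (adjusted p = 1.37e-07). Those of the beta subunit did not overlap either, and both genes stayed lower with the offset (-0.48 in KO and -0.32 in WT for Atp5a1, and -0.48 in KO and -0.50 in WT for Atp5b). In the central stalk, Atp5d, the delta subunit, had 41.6, 48.1 and 42.4 CPM in KO eTreg and 49.2, 48.01 and 46.96 CPM in WT eTreg. In cTreg, Atp5d had 92.2, 108 and 107 CPM in KO cTreg and 113, 97.2 and 101 CPM in WT cTreg. For Atp5d, the log2 fold changes were -1.22 ± 0.075 in KO (adjusted p = 4.56e-10) and -1.11 ± 0.075 in WT (adjusted p = 1.11e-09), and -0.22 in KO and -0.24 in WT with the offset. Atp5e, the epsilon subunit beside it, was lower, with -1.12 ± 0.089 in KO (adjusted p = 8.88e-09) and -1.08 ± 0.089 in WT (adjusted p = 1.14e-08), and -0.51 in KO and -0.55 in WT with the offset. Atp5c1, the gamma shaft on which both sit, had -0.033 ± 0.059 in KO (adjusted p = 0.628) and 0.14 ± 0.059 in WT (adjusted p = 0.0486). It was called in WT alone, upward, and in neither genotype with the offset. Per length, the alpha subunit stood above gamma by a ratio of 1.08 ± 0.018 in KO eTreg and 1.13 ± 0.045 in WT eTreg, against 1.47 ± 0.045 in KO cTreg and 1.51 ± 0.059 in WT cTreg (SD, n = 3 each).

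The c-ring, which turns as protons pass, is built from a single mature protein that Atp5g1, Atp5g2 and Atp5g3 all encode. Each of the 3 genes was lower in eTreg in both genotypes, but unequally. Atp5g1 had 10.1, 10.8 and 11.03 CPM in KO eTreg and 10.8, 12.5 and 13.8 CPM in WT eTreg. In cTreg, Atp5g1 had 23.8, 28.7 and 24.1 CPM in KO cTreg and 29.1, 24.1 and 26.05 CPM in WT cTreg. Atp5g1 had log2 fold changes of -1.26 ± 0.11 in KO (adjusted p = 2.15e-08) and -1.09 ± 0.11 in WT (adjusted p = 1.03e-07). Atp5g2 had 23.3, 22.6 and 22.8 CPM in KO eTreg and 26.3, 26.5 and 24.3 CPM in WT eTreg. In cTreg, Atp5g2 had 53.6, 53.4 and 51.8 CPM in KO cTreg and 62.6, 57.96 and 56.9 CPM in WT cTreg. Atp5g2 had log2 fold changes of -1.21 ± 0.063 in KO (adjusted p = 6.51e-11) and -1.20 ± 0.062 in WT (adjusted p = 4.89e-11). For Atp5g1 and Atp5g2 every eTreg library lay below every cTreg library. Atp5g3 had 46.4, 55.3 and 48.7 CPM in KO eTreg and 45.2, 52.8 and 50.6 CPM in WT eTreg. In cTreg, Atp5g3 had 75.2, 80.6 and 75.7 CPM in KO cTreg and 70.6, 64.3 and 67.5 CPM in WT cTreg. Atp5g3 had log2 fold changes of -0.62 ± 0.072 in KO (adjusted p = 7.22e-07) and -0.44 ± 0.073 in WT (adjusted p = 3.83e-05). With the offset the values were closer together, -0.54 in KO and -0.47 in WT for Atp5g1, -0.49 in KO and -0.59 in WT for Atp5g2 and -0.42 in KO and -0.32 in WT for Atp5g3, each still called lower. Per length, Atp5g3 made up 58.7% ± 2.19 of the c-ring transcripts in KO eTreg and 55.3% ± 1.32 in WT eTreg, against 48.4% ± 0.31 in KO cTreg and 43.0% ± 0.68 in WT cTreg (SD, n = 3 each). The share of Atp5g3 was higher in every eTreg library than in any cTreg library, and higher in every KO cTreg library than in any WT cTreg library; these shares were not tested.

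In the peripheral stalk, which keeps the F1 head from turning, the members parted. Atp5h (subunit d) was lower in both genotypes, with log2 fold changes of -0.40 ± 0.063 in KO (adjusted p = 2.65e-05) and -0.38 ± 0.063 in WT (adjusted p = 4.24e-05). Atp5o (the oligomycin sensitivity protein) was lower too, with -0.47 ± 0.064 in KO (adjusted p = 4.35e-06) and -0.34 ± 0.064 in WT (adjusted p = 0.000164), but was not called with the offset (-0.0048 in KO and 0.043 in WT). Atp5f1 (subunit b) was called higher in WT alone, with 0.016 ± 0.068 in KO (adjusted p = 0.845) and 0.23 ± 0.069 in WT (adjusted p = 0.00643). The same held for Atp5j (coupling factor 6), with 0.11 ± 0.074 in KO (adjusted p = 0.21) and 0.25 ± 0.075 in WT (adjusted p = 0.00663). With the offset Atp5j was higher in both genotypes (0.76 in KO and 0.80 in WT). Atp5s, listed by its symbol, had the largest rise of any member under TMM but few counts: 5.71, 6.04 and 6.87 CPM in KO eTreg and 5.75, 5.90 and 5.32 CPM in WT eTreg. In cTreg, Atp5s had 2.15, 2.74 and 1.45 CPM in KO cTreg and 2.89, 2.38 and 3.92 CPM in WT cTreg. For Atp5s, the log2 fold change was 1.54 ± 0.22 in KO (adjusted p = 8.14e-06) and 0.89 ± 0.22 in WT (adjusted p = 0.00141); with the offset it was 0.82 in KO and 0.16 in WT, called in KO and not in WT. All 3 accessory subunits of the membrane part, Atp5j2, Atp5k and Atp5l, were lower in both genotypes, and Atp5k was not called with the offset (-0.035 in KO and 0.058 in WT).

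**Figure D3:**
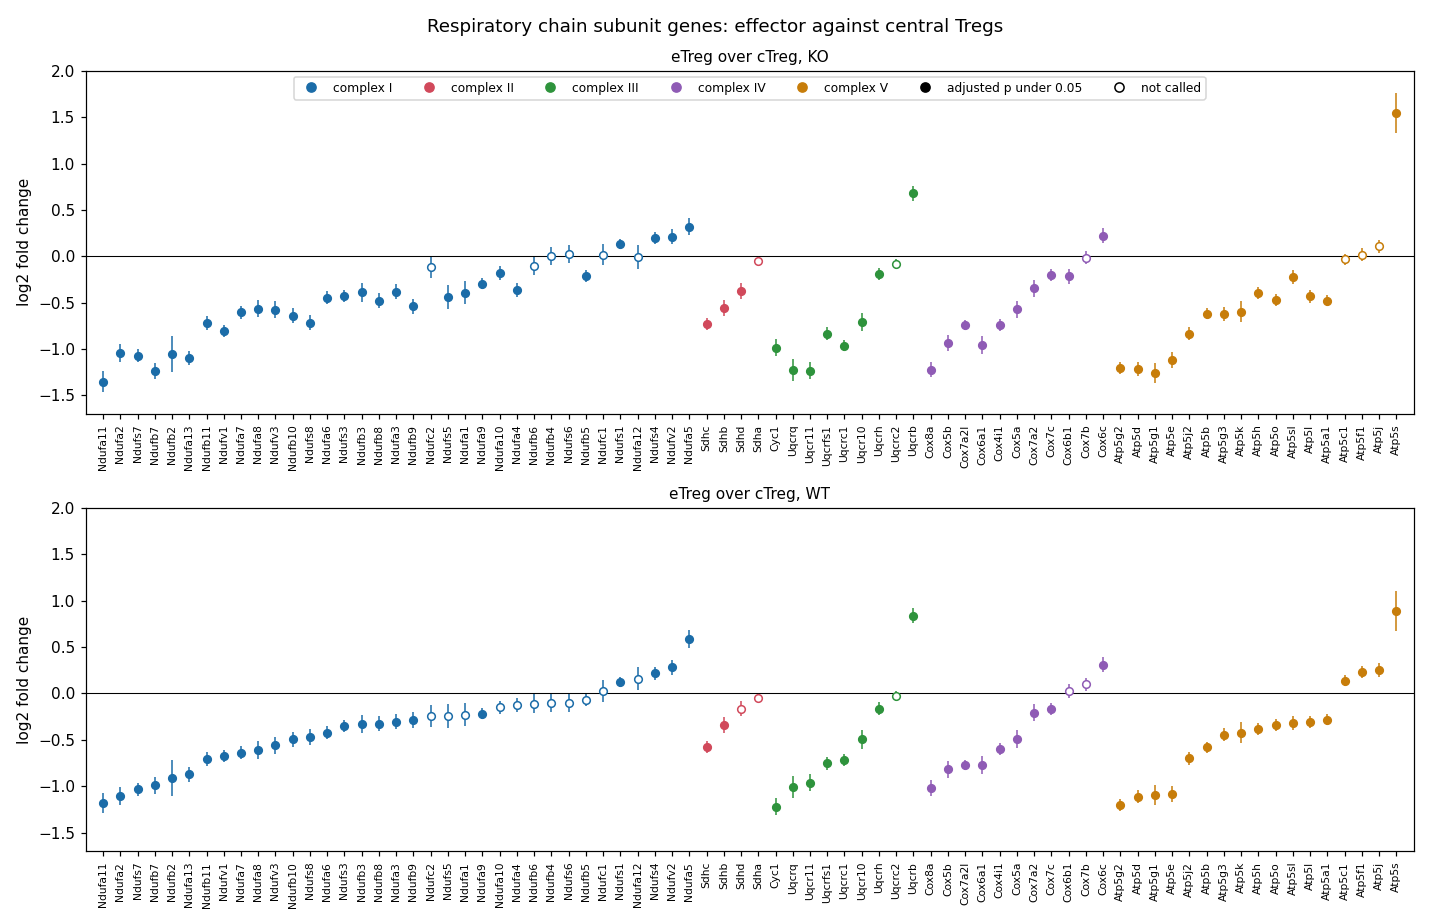
Log2 fold change of eTreg over cTreg for 76 of the 77 tested members, with SE bars, in KO (top) and WT (bottom), by complex and in the order of the WT values; filled points have an adjusted p under 0.05 and open points do not. Of all 77, 58 are called lower and 7 higher in KO, and in WT 51 lower and 10 higher; with the length and GC offset the counts were 42 and 7 in KO and 38 and 11 in WT, and the sign turned for 13 of the members called in KO and 14 of those called in WT.

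**Figure D4:**
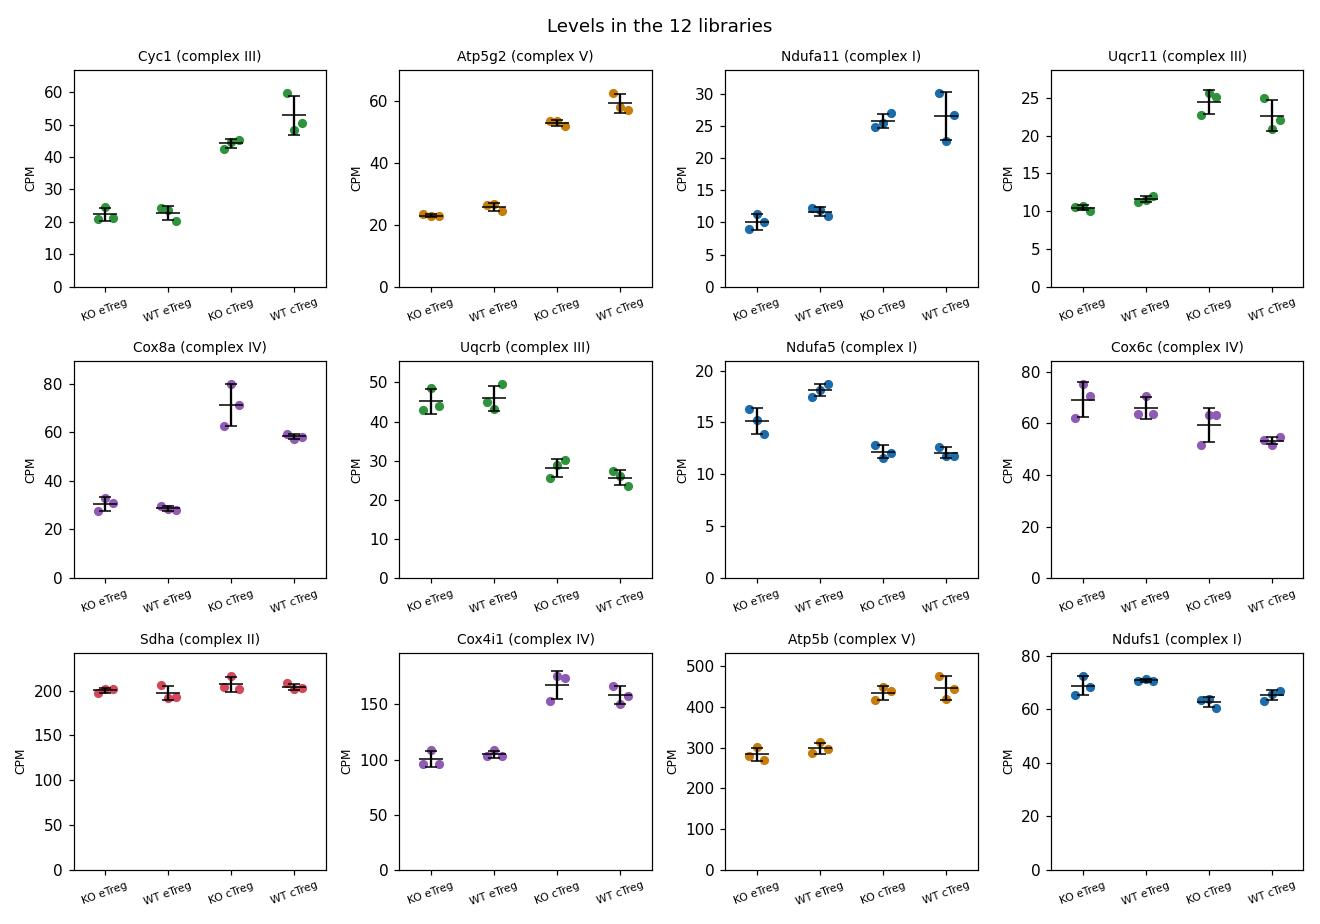
CPM of 12 members in the 12 libraries (KO eTreg, WT eTreg, KO cTreg and WT cTreg from left to right, linear axes from 0), with the mean and SD of each group of 3. Cyc1, Atp5g2, Ndufa11, Uqcr11, Cox8a, Cox4i1 and Atp5b are lower in eTreg (with the length and GC offset Cox4i1 is called in neither genotype and Uqcr11 in KO alone), Uqcrb, Ndufa5 and Cox6c are higher, Sdha overlaps, and Ndufs1 is higher here but lower with the offset.

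Few subunit transcripts differed between KO and WT in either subset. In cTreg, 2 members were higher and 3 lower in KO than in WT, 6.49% of the 77 tested, beside 27.5% of all genes (14.8% higher and 12.6% lower). The median log2 fold change was 0.059 over the members and 0.0014 over all genes. The fits were tight enough to bound the members: the 95% confidence interval of the log2 fold change lay within 0.5 of 0 for 75 of 77 members in cTreg, the others being Atp5s and Ndufb2, and the median SE was 0.080. The members called higher in KO cTreg were Cox8a and Atp5f1. Cox8a had 62.7, 79.7 and 71.2 CPM in KO cTreg, against 59.3, 57.5 and 58.1 CPM in WT cTreg, a log2 fold change of 0.29 ± 0.080 (adjusted p = 0.0123). Atp5f1 had 104, 118 and 109 CPM in KO cTreg, against 99.4, 92.5 and 92.9 CPM in WT cTreg, a log2 fold change of 0.22 ± 0.069 (adjusted p = 0.0252). In both genes each KO cTreg library lay above each WT cTreg library.

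The members called lower in KO cTreg were Cyc1, Ndufa6 and Cox7a2l, again with no overlap between genotypes. Cyc1 had 42.6, 44.8 and 45.2 CPM in KO cTreg, against 59.8, 48.3 and 50.5 CPM in WT cTreg, a log2 fold change of -0.26 ± 0.089 (adjusted p = 0.0407). Ndufa6, an accessory subunit of complex I that belongs to the LYR family of small mitochondrial proteins, had 36.4, 37.2 and 37.6 CPM in KO cTreg, against 47.9, 41.1 and 40.9 CPM in WT cTreg, a log2 fold change of -0.22 ± 0.070 (adjusted p = 0.0258). Cox7a2l had 180.4, 185 and 184 CPM in KO cTreg, against 217, 193 and 203 CPM in WT cTreg, a log2 fold change of -0.16 ± 0.052 (adjusted p = 0.0329). The largest of the 5 differences, that of Cox8a, was 1.22-fold. Single libraries decide these calls: without KO cTreg replicate 2 none of the 5 was called and Atp5s was, without KO cTreg replicate 3 Cox8a alone was called, and without KO cTreg replicate 1 the 3 lower calls were lost and 6 members were higher (Atp5f1, Cox5b, Cox6c, Cox8a, Ndufa13 and Ndufs8). Without WT cTreg replicate 1, 3 members were called, all higher, without WT cTreg replicate 3, 2 were called, 1 in each direction, and without KO eTreg replicate 2, which enters this comparison through the shared estimate of the spread, 8 were called.

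In eTreg only Ndufa6 was called, lower in KO, 1.3% of the 77 members beside 6.65% of all genes (3.25% higher and 3.4% lower). Ndufa6 had 26.9, 26.5 and 28.1 CPM in KO eTreg, against 33.5, 32.1 and 31.2 CPM in WT eTreg, a log2 fold change of -0.25 ± 0.070 (adjusted p = 0.0435), and it was the single member called in both subsets. Each KO library lay below each WT library of the same subset. The reported fit, which gave the call of Ndufa6, the shares and the confidence intervals, did not pair libraries by replicate number. Same-numbered KO and WT eTreg libraries were correlated, so paired fits were also run. When only the 6 eTreg libraries were fitted, with a block for the pairs, Ndufa6 and Sdhc were called lower, 2.6% of the members beside 14% of all genes (7.54% higher and 6.48% lower). With the block in all 12 libraries no member was called in edgeR's test, and 1 was higher and 8 lower at an unadjusted p under 0.05. The call of Ndufa6 was also lost with DESeq2, with the length and GC offset, and without any single eTreg library, KO cTreg replicate 2 or KO cTreg replicate 3. Sdhc was called lower with the length and GC offset and with library-size scaling without Rn45s. Confidence intervals lay within 0.5 of 0 for 76 of 77 members, all but Atp5s, and the median log2 fold change was -0.052 over the members and 0.0070 over all genes. The 13 core subunits of complexes I to III had KO over WT log2 fold changes between -0.21 (Sdhc) and 0.057 (Ndufv2) in eTreg, and between -0.26 (Cyc1) and 0.20 (Ndufs8) in cTreg. The summed level of complex V was 1275 ± 80.2 CPM in KO eTreg and 1335 ± 32.7 CPM in WT eTreg, and 1792 ± 85.95 CPM in KO cTreg and 1742 ± 87.0 CPM in WT cTreg (SD, n = 3 each). In cTreg the genotypes overlapped. In eTreg the KO library was below the WT library of the same number in 3 of 3 pairs, by 98.3, 6.7 and 74.5 CPM. The same count held for complexes I and III and for all 85 members together. An exact two-sided permutation test within the pairs gave p = 0.25 for each of these sums, the smallest that 3 pairs allow.

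**Figure D5:**
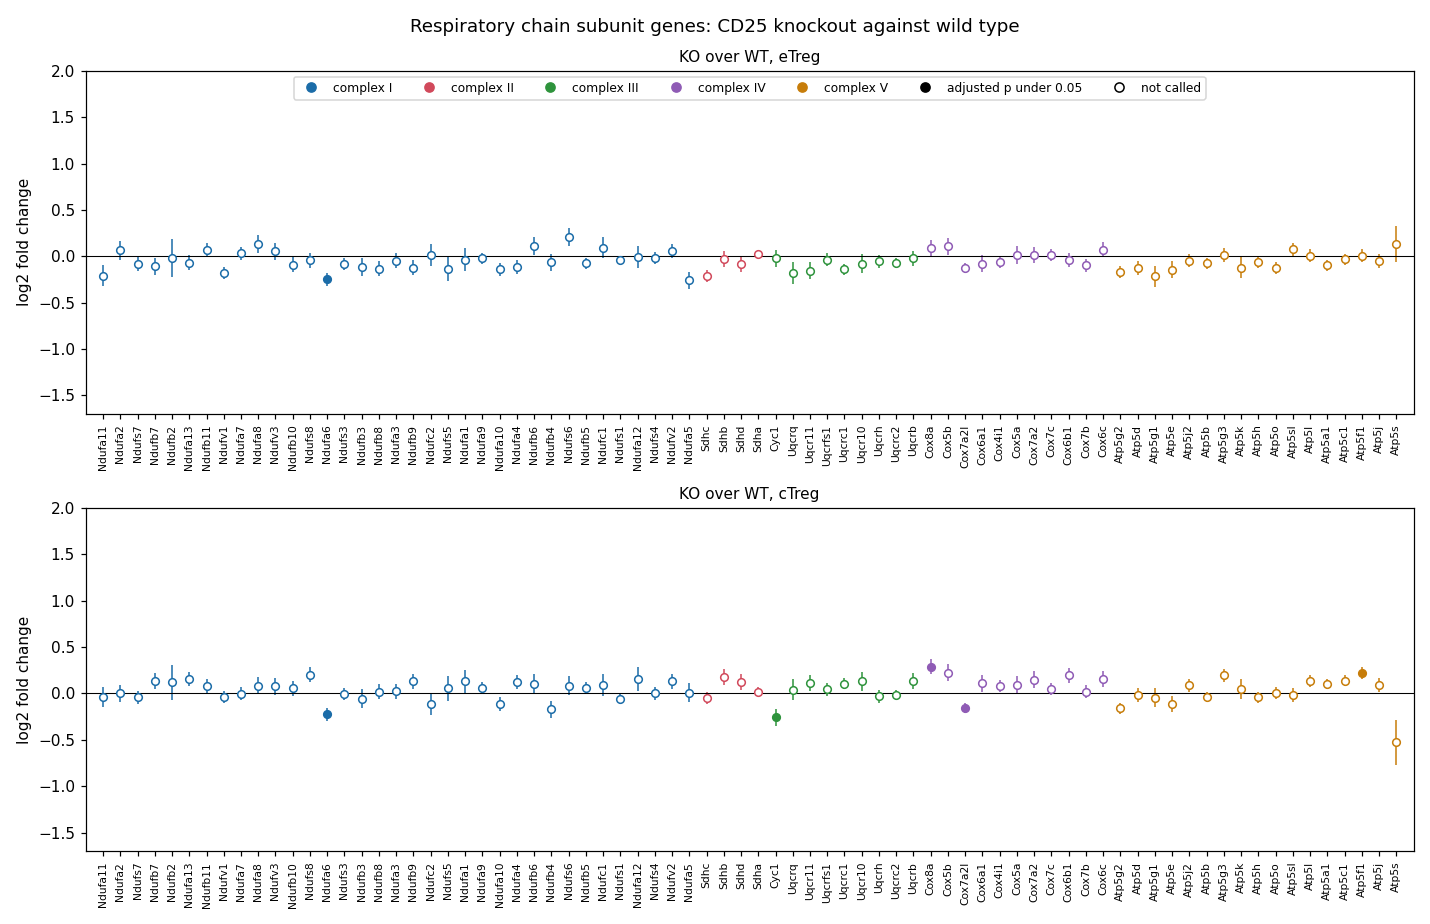
Log2 fold change of KO over WT for the same 76 members, with SE bars, in eTreg (top) and cTreg (bottom), in the same order and on the same scale as the plot of the subset difference; filled points have an adjusted p under 0.05. In eTreg 1 member is called and in cTreg 5, and apart from Atp5s every point lies within 0.3 of 0.

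No member passed the test for a KO effect that differs between eTreg and cTreg, where 3.8% of all genes did (0.803% higher and 3% lower). At an unadjusted p under 0.05 the effect was more positive in eTreg for 1 member and more negative for 8, and DESeq2 and limma-voom called 0 as well (0 and 3 with DESeq2 and 1 and 8 with limma-voom at an unadjusted p under 0.05, more positive and more negative). The median of this difference was -0.13 over the members, beside 0.00062 over all genes, and with the offset it was -0.050 beside 0.044.

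The genes that build and supply the chain were read from lists of textbook members. Values of single genes from these lists, rises and falls alike, are under TMM. With the offset only counts of calls are given for them. Of 14 tested assembly factors of complex I, 5 were higher and 3 lower in KO eTreg than in KO cTreg, and 5 were higher and 4 lower in WT, beside the shares of all genes given above; none was called between genotypes in either subset. With the offset 2 were higher and 3 lower in KO, and 1 higher and 3 lower in WT. The rises of complex I factors named here, under TMM, were thus not all called with it in either genotype. Ndufaf4, an early assembly factor, was higher in eTreg (0.80 ± 0.10 in KO, adjusted p = 1.73e-06, and 0.58 ± 0.099 in WT, adjusted p = 5.41e-05). Ndufaf1 was higher too (0.70 ± 0.11 in KO, adjusted p = 2.14e-05, and 0.50 ± 0.11 in WT, adjusted p = 0.00073), as was Ndufaf2 (0.56 ± 0.20 in KO, adjusted p = 0.0201, and 0.60 ± 0.21 in WT, adjusted p = 0.0157). Ecsit, part of the module that builds the membrane arm, was lower (-0.81 ± 0.098 in KO, adjusted p = 1.27e-06, and -0.89 ± 0.098 in WT, adjusted p = 4.11e-07), as was Ndufaf3 (-0.74 ± 0.14 in KO, adjusted p = 0.000189, and -0.73 ± 0.14 in WT, adjusted p = 0.000245). Of 36 assembly factors for complexes II to V, 5 were higher (13.9%) and 10 lower (27.8%) in KO eTreg. In WT eTreg 6 were higher (16.7%) and 11 lower (30.6%). Over all genes 36.1% were higher and 35.8% lower in KO, and 35.7% and 35.8% in WT. With the offset 7 of these factors were higher and 12 lower in KO, and 3 and 15 in WT. Sco2, which serves the copper centre of complex IV, was the lowest of them (-1.52 ± 0.14 in KO, adjusted p = 4.87e-08, and -1.48 ± 0.13 in WT, adjusted p = 3.75e-08). Cox14, which acts at the first steps of its assembly, was lower as well (-0.88 ± 0.089 in KO, adjusted p = 1.62e-07, and -0.97 ± 0.092 in WT, adjusted p = 6e-08), as was Uqcc3, an assembly factor of complex III (-0.86 ± 0.093 in KO, adjusted p = 2.95e-07, and -0.71 ± 0.095 in WT, adjusted p = 3.76e-06). Cox20, which works on the same complex as Sco2, was higher (0.62 ± 0.10 in KO, adjusted p = 4.51e-05, and 0.84 ± 0.11 in WT, adjusted p = 1.98e-06). So were Ttc19 of complex III (0.77 ± 0.14 in KO, adjusted p = 8.56e-05, and 0.55 ± 0.13 in WT, adjusted p = 0.00155) and Cox16 of complex IV (0.63 ± 0.079 in KO, adjusted p = 1.93e-06, and 0.52 ± 0.080 in WT, adjusted p = 2.02e-05).

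Between genotypes, 6 of the 36 assembly factors for complexes II to V were called in cTreg (16.7%, beside 27.5% of all genes). In eTreg 0 were called, beside 6.65% of all genes. Higher in KO cTreg were 3 factors of complex IV: Cmc2 (0.58 ± 0.18, adjusted p = 0.0258), the copper chaperone Cox17 (0.31 ± 0.098, adjusted p = 0.0256) and Surf1 (0.25 ± 0.080, adjusted p = 0.0301). Lower in KO cTreg was Bcs1l, which inserts the Rieske protein into complex III (-0.48 ± 0.14, adjusted p = 0.018). Sco2 (-0.45 ± 0.13, adjusted p = 0.0153) and Sdhaf1 of complex II (-0.31 ± 0.10, adjusted p = 0.036) were lower too. The values for the Rieske gene Uqcrfs1 itself were 0.044 ± 0.067 (adjusted p = 0.67) in cTreg and -0.039 ± 0.070 (adjusted p = 0.83) in eTreg.

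Regulators of respiratory chain genes and of mitochondrial transcription split in the subset comparison. In KO eTreg 9 of 16 were higher (56.2%) and 5 lower (31.2%), and in WT eTreg 8 were higher (50%) and 5 lower (31.2%). Over all genes 36.1% were higher and 35.8% lower in KO, and 35.7% and 35.8% in WT. With the offset 2 were higher and 4 lower in KO, and 0 higher and 7 lower in WT, so that the rises named here were not called in WT with it. Esrra, a nuclear receptor that acts on oxidative genes, was the lowest (-1.44 ± 0.080 in KO, adjusted p = 1.35e-10, and -1.27 ± 0.080 in WT, adjusted p = 4.63e-10). Polrmt, the mitochondrial RNA polymerase, came next (-1.13 ± 0.074 in KO, adjusted p = 9.76e-10, and -1.18 ± 0.074 in WT, adjusted p = 5.33e-10). The coactivator Pprc1 was lower too (-0.69 ± 0.062 in KO, adjusted p = 3.55e-08, and -0.93 ± 0.061 in WT, adjusted p = 8.71e-10), and so was Ppargc1b (-0.63 ± 0.13 in KO, adjusted p = 0.000368, and -0.84 ± 0.13 in WT, adjusted p = 2.25e-05). Tfb1m, which modifies mitochondrial ribosomal RNA, was higher (0.96 ± 0.15 in KO, adjusted p = 2.56e-05, and 0.44 ± 0.15 in WT, adjusted p = 0.0147), as was Mterf1a, a mitochondrial termination factor (0.83 ± 0.14 in KO, adjusted p = 6.53e-05, and 0.64 ± 0.15 in WT, adjusted p = 0.000999). Gabpa, the DNA-binding part of nuclear respiratory factor 2, was higher (0.43 ± 0.056 in KO, adjusted p = 3.14e-06, and 0.45 ± 0.057 in WT, adjusted p = 1.8e-06), and so was its partner Gabpb1 (0.58 ± 0.061 in KO, adjusted p = 2.03e-07, and 0.45 ± 0.061 in WT, adjusted p = 5.34e-06). Nrf1 was lower (-0.21 ± 0.048 in KO, adjusted p = 0.00079, and -0.19 ± 0.048 in WT, adjusted p = 0.00247). In KO cTreg, Pprc1 was lower than in WT cTreg (-0.46 ± 0.061, adjusted p = 3.14e-05), as was Lrpprc, which stabilises mitochondrial messages (-0.31 ± 0.068, adjusted p = 0.00271), and Gabpa was higher (0.16 ± 0.058, adjusted p = 0.0429). Pprc1 was the 1 regulator called in eTreg (-0.22 ± 0.063, adjusted p = 0.0433), so its level was lower in KO in both subsets. The regulators called between genotypes were 18.8% of the 16 in cTreg, beside 27.5% of all genes. In eTreg they were 6.25%, beside 6.65% of all genes.

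Among 13 genes of cytochrome c and coenzyme Q synthesis, 0 were higher and 3 lower (23.1%) in KO eTreg than in KO cTreg (Coq2, Coq6 and Coq9). In WT 1 was higher (7.69%) and 3 lower (23.1%), and with the offset 1 and 2 in KO and 2 and 3 in WT. Over all genes 36.1% were higher and 35.8% lower in KO, and 35.7% and 35.8% in WT. Cycs, cytochrome c itself, had values of 0.016 ± 0.12 in KO (adjusted p = 0.916) and 0.011 ± 0.12 in WT (adjusted p = 0.944). Coq2, which joins the ring and the tail of coenzyme Q, was the single gene of this list called between genotypes, lower in KO cTreg (-0.35 ± 0.083, adjusted p = 0.00488). It made up 7.69% of the list, beside 27.5% of all genes called in cTreg. Of 13 TCA cycle genes, 2 were higher (15.4%) and 7 lower (53.8%) in KO eTreg, and 4 higher (30.8%) and 7 lower (53.8%) in WT eTreg. With the offset 0 were higher in either genotype, and 7 lower in KO and 5 in WT. Mdh2, the last enzyme of the cycle, was lower (-0.79 ± 0.057 in KO, adjusted p = 2.75e-09, and -0.66 ± 0.057 in WT, adjusted p = 1.97e-08), and Dld, the shared lipoamide dehydrogenase, was higher (0.65 ± 0.062 in KO, adjusted p = 6.12e-08, and 0.63 ± 0.062 in WT, adjusted p = 1.06e-07). In KO cTreg, Ogdh was higher (0.18 ± 0.053, adjusted p = 0.0213) and Suclg2 lower (-0.44 ± 0.076, adjusted p = 0.00041), 15.4% of the TCA genes beside 27.5% of all genes. Slc25a5, the ADP/ATP carrier of dividing cells, was lower in eTreg (-0.61 ± 0.088 in KO, adjusted p = 2.54e-05, and -0.59 ± 0.088 in WT, adjusted p = 3.19e-05). Slc25a4, the isoform of heart and muscle, was lower too (-0.78 ± 0.095 in KO, adjusted p = 2.99e-06, and -0.38 ± 0.097 in WT, adjusted p = 0.00267). Slc25a4 was higher in KO cTreg than in WT cTreg (0.37 ± 0.095, adjusted p = 0.00946). Of the 7 genes for such carriers and for the ATPase inhibitor, 1 was higher (14.3%) and 3 lower (42.9%) in KO eTreg, and 1 higher (14.3%) and 4 lower (57.1%) in WT eTreg. With the offset 1 was higher and 5 lower in each. Between genotypes in cTreg 1 of the 7 was called (14.3%, beside 27.5% of all genes). Atpif1, which inhibits ATP hydrolysis by complex V, was higher in eTreg (0.60 ± 0.12 in KO, adjusted p = 0.000347, and 0.63 ± 0.13 in WT, adjusted p = 0.000329). The name patterns leave out 3 subunits. Of these Usmg5 of complex V was higher (0.39 ± 0.077 in KO, adjusted p = 0.00028, and 0.37 ± 0.079 in WT, adjusted p = 0.000494). In contrast, 2010107E04Rik of the same complex was lower (-0.25 ± 0.078 in KO, adjusted p = 0.00832, and -0.34 ± 0.078 in WT, adjusted p = 0.000977), and Ndufab1 of complex I was not called under TMM (-0.087 in KO and -0.096 in WT). With the offset all 3 were called, 1 higher and 2 lower in each genotype.

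Promoters of respiratory chain genes are known for short motifs of NRF1, of ETS factors such as GABPA, and of YY1. RefSeq promoters (GRCm38.p6, 250 bases before to 50 after the start) were matched for 69 of the 85 members, and 3 motifs were searched on both strands: GCGC, any base and TGCGC (NRF1), CCGGAAG (ETS) and AANATGGCG (YY1). None of them holds another. A gene was counted for a motif if any of its promoters held it. At least 1 motif was held by 38 of 69 members (55.1%), beside 15.9% of all 27025 genes with a promoter. Those genes were not limited to the ones tested here, whereas 65 of the 69 members were tested. By motif the shares were 24.6% of members beside 5.19% of all genes with a promoter for NRF1, 23.2% beside 9.93% for ETS, and 15.9% beside 2.76% for YY1. Among the members lower in eTreg in both genotypes 26 of 43 with a promoter (60.5%) held at least 1, and among those higher in both 2 of 4 did. A match describes the letters and not binding. For each motif, 250 bases of a promoter of a member that was lower in eTreg in both genotypes are given 5′ to 3′ on the gene's strand, with the match in capitals (for Atp5e the capitals are the reverse complement of the letters searched). They are from RefSeq, build GRCm38.p6: Atp5g2 (NRF1) at chr15:102671048-102671297, Atp5e (ETS) at chr2:174464102-174464351 and Ndufb11 (YY1) at chrX:20617620-20617869, all on the minus strand.
Atp5g2: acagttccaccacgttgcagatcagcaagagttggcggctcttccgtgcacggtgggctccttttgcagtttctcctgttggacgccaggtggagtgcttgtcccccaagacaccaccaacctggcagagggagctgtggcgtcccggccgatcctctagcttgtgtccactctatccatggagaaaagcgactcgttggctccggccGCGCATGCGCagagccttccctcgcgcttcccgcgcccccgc
Atp5e: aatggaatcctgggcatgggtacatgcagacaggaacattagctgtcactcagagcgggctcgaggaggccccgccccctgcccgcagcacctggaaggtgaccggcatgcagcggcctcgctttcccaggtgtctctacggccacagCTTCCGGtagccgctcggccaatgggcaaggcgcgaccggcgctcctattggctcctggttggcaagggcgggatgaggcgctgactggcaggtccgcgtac
Ndufb11: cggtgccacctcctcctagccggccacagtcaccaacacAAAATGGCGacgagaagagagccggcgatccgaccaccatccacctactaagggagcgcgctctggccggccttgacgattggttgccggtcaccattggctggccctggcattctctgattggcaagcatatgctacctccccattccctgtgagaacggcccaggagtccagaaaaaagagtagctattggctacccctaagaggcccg
Atp5g2 and Atp5e have their values above. Ndufb11, an accessory subunit of the membrane arm of complex I, had 29.8, 33.7 and 29.9 CPM in KO eTreg and 30.2, 31.5 and 27.3 CPM in WT eTreg. In cTreg, Ndufb11 had 48.2, 54.4 and 51.05 CPM in KO cTreg and 49.8, 45.3 and 50.02 CPM in WT cTreg. For Ndufb11, the log2 fold change was -0.72 ± 0.075 in KO (adjusted p = 2.29e-07) and -0.70 ± 0.076 in WT (adjusted p = 3.3e-07), and -0.37 in KO and -0.44 in WT with the offset.

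Respiratory chain genes have many processed pseudogenes, and a count table can split reads between near-identical copies. In GENCODE vM21, 20 members had at least 1 pseudogene or retrocopy transcript that matched at least 80% of the coding sequence at 95% identity or more, 35 copies in all, up to 7 for Atp5l. Only 3 of the copies had a row in the table. BC002163, a copy of Ndufs5, held 2205 counts over the 12 libraries beside 2090 for Ndufs5 itself, so the level of Ndufs5 is uncertain. Gm10012 and Gm12338, copies of Cox7c, held 282 and 1141 counts beside 7342 for Cox7c. Both copies were higher in eTreg (Gm12338 by 0.52 ± 0.16 in KO, adjusted p = 0.00906, and 0.89 ± 0.17 in WT, adjusted p = 0.000191), whereas Cox7c was lower (-0.20 ± 0.063 in KO, adjusted p = 0.00763, and -0.17 ± 0.063 in WT, adjusted p = 0.024). The members whose values carry this uncertainty include Uqcrb, with 3 copies, and Cox6c, Atp5g2 and Uqcr11, with 2 each.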

How the data were processed

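Raw read counts per gene symbol, 1 column per library, were used as deposited; they are whole numbers. Per the labels' protocols, the Qiagen RNeasy kit yielded the RNA, and a KAPA HyperPrep kit with ribosomal depletion the libraries. The submitters' processing notes name HISAT2 2.2.1, Cell Ranger and mm10; the counter is not given in the sources used here and neither is strand use, which leaves overlapping and near-identical genes uncertain. Month-like symbols (27) and repeated ones (2) are no members, and 0 columns went unused.

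The fit used edgeR 4.0.16 in R 4.3.3 (filterByExpr, TMM, robust glmQLFit and glmQLFTest, two-sided) over all 12 libraries in 4 groups, with Benjamini-Hochberg adjustment over 12461 genes in each of 5 contrasts. Offsets were natural splines with 4 degrees of freedom on log transcript length and GC content, fitted per library. The steps were tested on simulated data. Alternatives used DESeq2 1.42.0 and limma 3.58.1, and copies were found with blastn 2.17.0. Coordinates are from GENCODE vM21.

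Members, lists, tests and the naming rule were chosen with earlier results of these data known. The rule names, with values in each library, up to 5 called members per direction and contrast whose mean log2 CPM reaches 0, the core subunits Ndufs1, Ndufv1, Sdha, Sdhb, Uqcrfs1, Cyc1, Cox4i1, Cox5a, Atp5a1 and Atp5b, the tissue-type paralog sets and the c-ring genes, and up to 3 called genes per direction of each list; a gene that the rule names is not reported here. Other genes (among them Atp5c1, Atp5e, Atp5h, Atp5j, Atp5k, Atp5o, Cox5b, Sdhc, Sdhd, Uqcrc2, Cycs, Nrf1, Gabpa and Gabpb1 in the subset comparison, Ndufb11 and the copies) were chosen after their values were seen.

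Deviations from the group means correlated between same-numbered KO and WT eTreg libraries (0.166 to 0.341, unlike numbers -0.31 to 0.071). The labels do not explain the numbers. The reported fit had no replicate block. For KO against WT in eTreg, pairs entered only the alternative fits with a block and the permutation test. No libraries of a group were duplicates (chi-squared per degree of freedom 3.68 to 10.3). Intervals and limits from counts cover counting error only.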

Additional observations from a re-analysis of the deposited data

How the results depend on the processing

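For the subset difference the number of members called, over both directions, stayed within 1.5 times the value reported in every alternative tried, and leaving out single libraries gave 59 to 65 in KO and 57 to 62 in WT. Single libraries ended the KO call of Atp5sl, Cox6b1, Cox6c, Ndufa1, Ndufa10, Ndufs1, Ndufs4, Ndufv2 or Uqcrh and the WT call of Atp5c1, Cox7a2, Cox7c, Ndufs1 or Uqcrh; members higher in KO numbered 3 without KO eTreg replicate 2 and 4 without replicate 3, beside 7. For KO against WT in cTreg (5 members), leaving out single libraries gave 1 to 8, and the 6 cTreg libraries with the replicate block gave 1; over all genes 1847 were higher and 1574 lower in the reported fit, and 1370 and 1180 with that block. For KO against WT in eTreg (1 member), library-size scaling without Rn45s gave 2, the DESeq2 Wald test 0, the replicate block 0, the block with the length and GC offset 0, the 6 eTreg libraries with the block 2, and leaving out single libraries 0 to 1. Over all genes in eTreg, 405 were higher and 424 lower in the reported fit, and 921 and 791 in the 6 libraries with the block. The difference of the KO effect between subsets had 100 genes higher and 374 lower in the reported fit, and 310 and 428 with the block and the offset. The block moved no other count of calls by over 1.5 times, and 0 members differed in KO effect between subsets in any fit. With the length and GC offset the log2 fold change of eTreg over cTreg changed sign, among the values that the naming rule selects, for Ndufv2 (-0.31 in KO and -0.25 in WT), Ndufs1 (-0.22 and -0.26), Cox4i1 (0.040 and 0.080), Cox6b1 in KO (0.043), and Sdhb (0.081), Cox6a1 (0.018) and Cox7a2 (0.043) in WT. With the replicate block added these were -0.31 and -0.26 for Ndufv2, -0.22 and -0.26 for Ndufs1, 0.040 and 0.079 for Cox4i1, 0.044 for Cox6b1, 0.080 for Sdhb, 0.019 for Cox6a1 and 0.040 for Cox7a2. Over all called members the sign turned with the offset for 13 in KO and 14 in WT, among them Ndufb8, Ndufb9, Ndufs4 and Ndufs8 in both and Atp5k and Atp5o in WT. The cause was not tested. Among the called values that the naming rule selects, under all alternatives, 1250 kept direction and side of the threshold, 87 kept direction but not the call and 20 changed sign. The counts of members are not in this tally. For KO against WT they moved by over 1.5 times under 6 of 23 alternatives in cTreg and under 13 of 23 in eTreg. With 3 libraries a group and a median SE of 0.080, small differences were not detectable.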
